A study of Mus musculus with 2 samples.

Results

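Genes of poly-A tail binding and synthesis were described across the cells of adult mouse testes: 4 cytoplasmic poly-A binding proteins (Pabpc1, Pabpc2, Pabpc6 and Pabpc4), the poly-A polymerases Papola and Papolb, and the poly-A binding protein partners Paip1, Paip2 and Paip2b. The members were taken by symbol, and all 9 were found among the 50686 genes of the count matrix. A small part of the testis tissue of 2 wild-type C57Bl/6J mice aged 8 weeks was dissociated. Per the paper, the suspension was strained in part to keep somatic cells few. From each mouse 1 droplet library of single cells was made, with no treatment and no other genotype. Every comparison below is therefore between cell classes of the same 2 animals, and p-values measure the spread between these 2 animals. The matrix held 27450497 UMIs (unique molecular identifiers, each counting 1 captured transcript) in 1237 cells of mouse 1 and 30302332 UMIs in 1315 cells of mouse 2. No cell barcode was shared between the libraries.

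In the cytoplasm, poly-A binding proteins coat the tail of an mRNA and contact the translation initiation machinery at the cap, which promotes translation and protects the message. Poly-A polymerases lengthen the tail. Male germ cells store many mRNAs for days and translate them only after transcription has stopped in the condensing spermatid, so control of tails and of the proteins that bind them is known as a central part of sperm development. Paip1 is a partner that stimulates translation, whereas Paip2 and Paip2b displace the binding protein from the tail and repress it.

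Cells were clustered with the members left out, and clusters were named from marker genes. This gave 162 early spermatocyte-like cells, 533 pachytene or later spermatocyte-like cells, 431 round spermatid-like cells and 704 elongating or condensing spermatid-like cells. The last class joined a cluster of 199 cells led by Hemgn and a cluster of 505 cells led by Prm1, a protamine. A cluster of 702 cells, led by Ssxb1 and Ssxb2, was given no name: its highest marker score was for round spermatids, but 0 of their 12 markers reached 1.5 times their level over all cells. Its cells filled most of the places between the spermatocyte-like and round spermatid-like cells in an ordering by diffusion pseudotime. For short, these classes are called early, pachytene, round and elongating cells, and the clusters within the last are called the Hemgn and the Prm1 cluster. The remaining cells were 8 spermatogonium-like, 7 Sertoli-like and 5 Leydig-like cells, too few for a test. Protamine and transition protein genes, which mark late spermatids, took 14.3% and 11.1% of UMIs in the elongating class of mouse 1 and mouse 2, and still 0.629% and 0.319% in early cells. RNA of other cells can enter a droplet, and its part in the low values below was not tested.

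The members differ in gene structure (GRCm38, GENCODE annotation). Pabpc1 (chr15:36595661-36609668, minus strand), Pabpc4 (chr4:123262351-123298925, plus strand), Papola (chr12:105784694-105838944, plus strand), Paip1 (chr13:119428601-119458218, plus strand), Paip2 and Paip2b (chr6:83805401-83831741, minus strand) have transcripts of several exons. Pabpc2, Pabpc6 (chr17:9666495-9669717, minus strand) and Papolb (chr5:142525838-142530076, minus strand) are annotated with 1 exon each. Papolb lies within the gene Radil on the same strand, without exon overlap. Slc23a1 lies on the opposite strand of Paip2, also without exon overlap.

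The promoter sequence is shown for Papola and its single-exon relative Papolb, which changed in opposite directions between early and pachytene cells, and for Paip1 and Paip2b, which did so between pachytene and round cells. Each runs from 250 bases before to 50 bases after the RefSeq start in GRCm38.p6, 5′ to 3′ on the strand of the gene. Capitals mark CGTCA, the reverse complement of TGACG, the core of the cAMP response element bound by CREM, a known activator of spermatid genes. Both strands were searched for TGACG, for the full element TGACGTCA, which contains it, and for the MYB site GGCAGTT.
Papola (chr12:105784447-105784746, plus strand): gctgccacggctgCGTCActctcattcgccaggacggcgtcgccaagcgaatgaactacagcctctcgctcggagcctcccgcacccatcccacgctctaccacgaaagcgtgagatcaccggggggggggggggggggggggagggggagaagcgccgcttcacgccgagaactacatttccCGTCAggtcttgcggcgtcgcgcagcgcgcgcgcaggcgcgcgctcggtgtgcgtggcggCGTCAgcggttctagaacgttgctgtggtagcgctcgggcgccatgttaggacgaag
Papolb (chr5:142530027-142530326, minus strand): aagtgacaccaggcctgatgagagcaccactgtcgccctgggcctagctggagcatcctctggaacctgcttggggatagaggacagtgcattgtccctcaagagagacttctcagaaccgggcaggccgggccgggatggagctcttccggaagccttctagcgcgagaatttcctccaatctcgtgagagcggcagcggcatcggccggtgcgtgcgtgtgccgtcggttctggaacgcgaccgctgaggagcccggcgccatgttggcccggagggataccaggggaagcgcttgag
Paip1 (chr13:119428350-119428649, plus strand): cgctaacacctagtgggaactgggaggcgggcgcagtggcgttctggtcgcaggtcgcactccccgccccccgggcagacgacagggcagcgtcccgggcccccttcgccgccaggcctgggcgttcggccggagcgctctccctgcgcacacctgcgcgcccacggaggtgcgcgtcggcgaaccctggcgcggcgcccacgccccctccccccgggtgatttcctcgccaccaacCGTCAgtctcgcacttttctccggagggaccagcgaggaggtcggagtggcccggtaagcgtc
Paip2b (chr6:83831692-83831991, minus strand): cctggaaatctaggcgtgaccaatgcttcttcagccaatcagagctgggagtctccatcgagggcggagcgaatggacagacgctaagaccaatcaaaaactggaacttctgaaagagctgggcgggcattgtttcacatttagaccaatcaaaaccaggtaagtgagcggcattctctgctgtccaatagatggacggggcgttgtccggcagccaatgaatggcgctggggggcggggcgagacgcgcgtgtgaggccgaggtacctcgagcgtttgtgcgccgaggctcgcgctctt
The Papola window held the core 3 times, beginning 237, 67 and 7 bases before the start. The Paip1 window shown held it once, 13 bases before the start, and the window of another Paip1 start held it once, 191 bases before. Neither the Papolb nor the Paip2b window held any of the 3 motifs, nor did the Pabpc4 window, which was also searched and is not shown. Of 32817 promoters of this length, 20.8% held the core, 1.79% the full element and 4.12% the MYB site. These matches describe letters only.

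Among the poly-A binding protein genes, Pabpc1, Pabpc2 and Pabpc6 had high levels that fell at different times, whereas Pabpc4 had few UMIs throughout. Pabpc1, the general cytoplasmic poly-A binding protein, had 2568 CPM (UMIs of the class scaled to a total of 1000000) in mouse 1 and 2406 CPM in mouse 2 in early cells. Its level was 2102 and 2094 CPM in pachytene cells, 1798 and 1612 CPM in the unnamed cluster, and 1515 and 1377 CPM in round cells. Elongating cells had 399 and 420.5 CPM. On the CPM scale the classes thus followed the order of development without overlap between the mice, but the early steps depended on scaling. With TMM scaling (a factor per sum that centres most genes at no change), Pabpc1 differed by 0.05 ± 0.14 (log2 fold change ± SE, edgeR, adjusted p = 0.809) between pachytene and early cells and by -0.22 ± 0.14 (edgeR, adjusted p = 0.166) between round and pachytene cells. The step to elongating cells passed the test, with -0.97 ± 0.14 (edgeR, adjusted p = 6.8e-06). In UMIs per cell, the step from early to pachytene cells was a rise of 0.42 on the log2 scale. The last 2 steps were -1.08 and -2.32 on that scale.

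Within the elongating class, Pabpc1 was not uniform. The cluster led by Hemgn had 834.5 and 762 CPM, whereas the cluster led by Prm1 had 142.2 and 106.2 CPM. Per cell this was a mean of 19.8 and 19.4 UMIs against 1.79 and 1.45 UMIs. Both mice showed the same order of these clusters, which were not tested against each other. The Prm1 cluster also had fewer UMIs per cell, with a median of 11702 against 23453.

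Pabpc2 (chr18:39773497-39776082, plus strand), a germ cell poly-A binding protein, rose between early and pachytene cells. Its level was 407.2 CPM in mouse 1 and 555 CPM in mouse 2 in the early class and 1536 and 1540 CPM in the pachytene class, a difference of 1.94 ± 0.17 (log2 fold change ± SE, edgeR, adjusted p = 7.9e-09). The unnamed cluster had 1330 and 1360 CPM and round cells had 922.1 and 961.1 CPM. Relative to pachytene cells, the round class was lower by -0.39 ± 0.16 (edgeR, adjusted p = 0.0345), a call that did not hold with DESeq2 (adjusted p = 0.356) or with 5000 UMIs per cell (adjusted p = 0.198). Elongating cells had 202.5 and 208.7 CPM, which was lower than in round cells by -1.34 ± 0.17 (edgeR, adjusted p = 5.9e-07). All 533 pachytene and all 431 round cells had a UMI of Pabpc2, against 4 of 8 spermatogonium-like cells, at median depths of 20769, 21977 and 10707 UMIs. With every cell thinned to 5000 UMIs, the shares were 100%, 99.1% and 25%.

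Pabpc6, a further single-exon member of the family, was highest in pachytene cells and low in round and elongating cells. It had 279.9 and 303.1 CPM in early cells of mouse 1 and mouse 2 and 720.9 and 722.6 CPM in pachytene cells. The rise was 1.59 ± 0.15 (log2 fold change ± SE, edgeR, adjusted p = 1.7e-08). Its level was 186.9 and 161.8 CPM in the unnamed cluster and 24.1 and 21.5 CPM in round cells, which was lower than in pachytene cells by -4.67 ± 0.17 (edgeR, adjusted p = 1.2e-15). The round cells were therefore far below the pachytene cells in both animals. Although it had been left out of the clustering, Pabpc6 was among the 10 genes with the largest fold in the pachytene cluster. Elongating cells had 13.0 and 9.67 CPM and did not pass the test against round cells, with -0.15 ± 0.20 (edgeR, adjusted p = 0.546), except without TMM scaling (-1.003, adjusted p = 8.3e-05). After thinning, 96.4% of pachytene cells and 13.0% of round cells had a UMI of Pabpc6, and 2 of 8 spermatogonium-like cells (25%) did so, so that low shares cannot be told apart from RNA of other cells.

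Pabpc4, the inducible poly-A binding protein, received 10 UMIs in all cells, 9 of them in mouse 1. In round cells there were 0 UMIs of Pabpc4, which allows a level of up to 0.300 CPM (3 counts of the total, counting error only). It did not pass the filter on low counts, so 8 of the 9 members were tested. The count is a lower limit of uncertain size. Of the 496 stretches of 98 bases (the read length) in the last 500 bases of its transcripts, 235 (47.4%) occur also in other genes, among them Gm5466 and Gm11839, and a read from such a stretch has no single place. Those relatives had few UMIs too, with 22 for Gm5466 and 1 for Gm11839. Reads from shared stretches are not counted for them either, so these counts do not show how many reads were lost. For Pabpc1 only 21 of 1113 such stretches were shared, and for the other members 0.

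**Figure D1:**
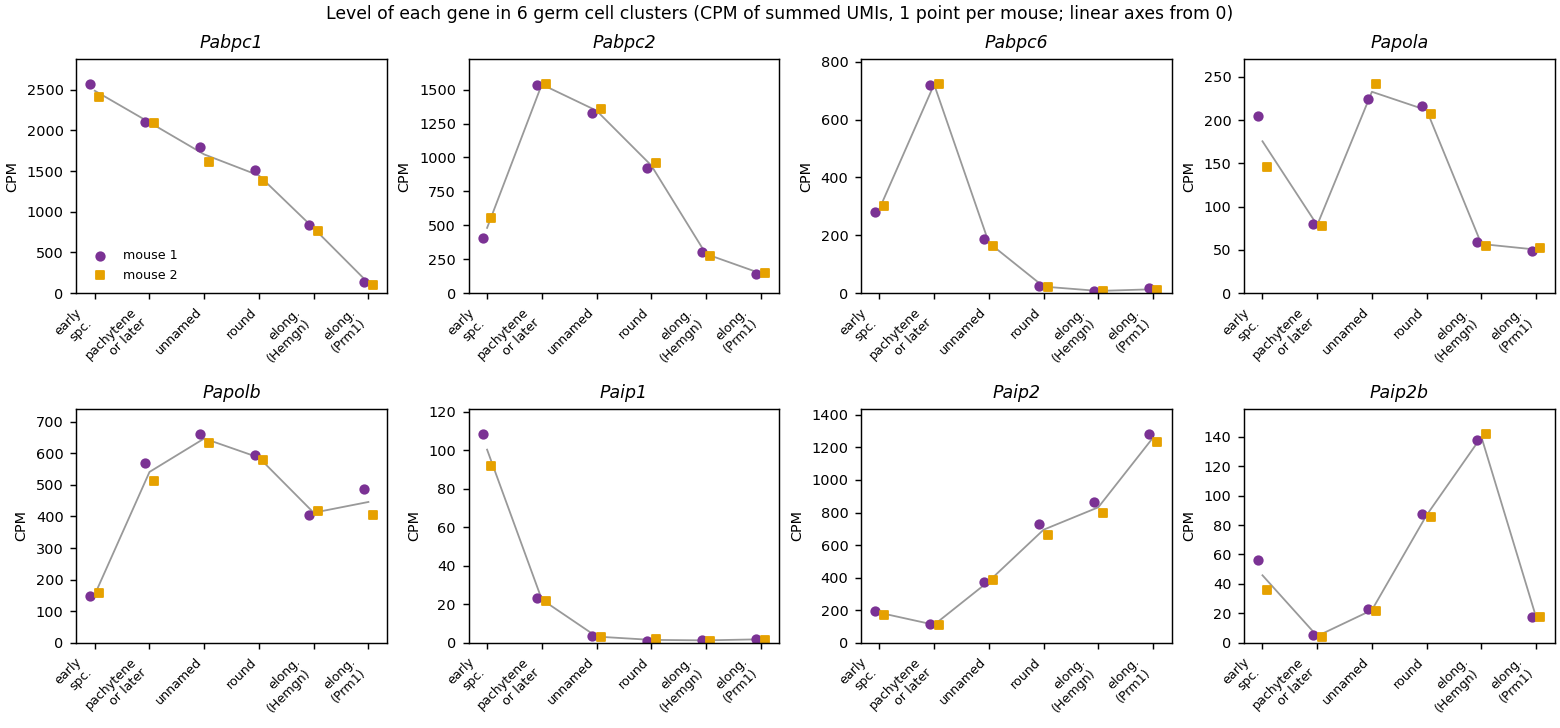
Level of 8 genes in 6 germ cell clusters, in CPM of summed UMIs on linear axes from 0 with a scale of its own for each gene; circles are mouse 1, squares are mouse 2 and the grey line joins their means. Pabpc1 goes down across the clusters, Pabpc2 and Pabpc6 are highest in pachytene cells (1536 and 720.9 CPM in mouse 1), Papolb is lowest in early cells, Paip1 is highest in them, and Paip2 is highest in the Prm1 cluster.

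The make-up of the Pabpc messages differed between the classes. Of all UMIs of Pabpc1, Pabpc2 and Pabpc6 in early cells, Pabpc1 held 78.9% in mouse 1 and 73.7% in mouse 2. In pachytene cells Pabpc1 held 48.2% and 48.1%, Pabpc2 35.2% and 35.4%, and Pabpc6 16.5% and 16.6%. The single-exon genes together thus held the larger part there in both mice. In the Prm1 cluster, Pabpc2 held 47.4% and 56.0%, against 26.5% and 26.3% in the Hemgn cluster. These shares compare 3′ counts of different genes, which may be captured unequally.

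**Figure D2:**
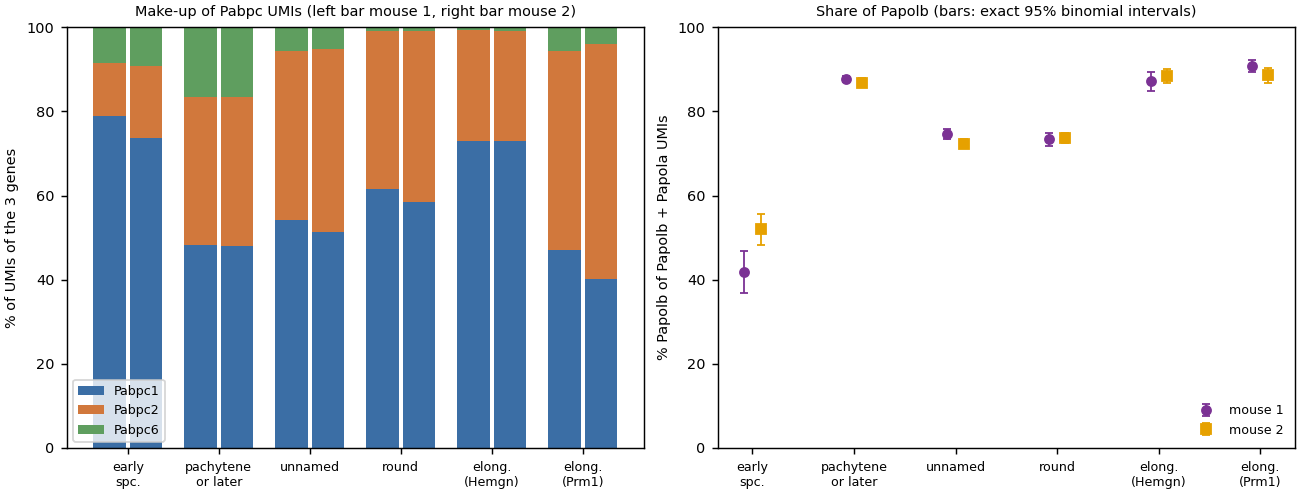
Left, percentage of the UMIs of Pabpc1, Pabpc2 and Pabpc6 held by each gene in 6 germ cell clusters, with 1 bar per mouse; right, percentage of Papolb among UMIs of Papolb and Papola, with exact 95% binomial intervals that cover counting error only. The Papolb share goes from 41.8% and 52.0% in early cells to 87.7% and 86.9% in pachytene cells, and is lower in the unnamed and round clusters.

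The poly-A polymerases changed in opposite directions between early and pachytene cells. Papolb, a testis polymerase known to act in the cytoplasm and to be needed for spermiogenesis, had 147 CPM in mouse 1 and 158.2 CPM in mouse 2 in early cells. Pachytene cells had 568.9 and 513.4 CPM, higher by 2.10 ± 0.15 (log2 fold change ± SE, edgeR, adjusted p = 6.1e-10). The unnamed cluster had 662.1 and 632 CPM, round cells 594.9 and 578.2 CPM, and elongating cells 457.5 and 410.8 CPM. From pachytene cells onward, the class levels of Papolb thus lay between 410.8 and 662.1 CPM. It passed the test as higher in round than in pachytene cells, by 0.43 ± 0.14 (edgeR, adjusted p = 0.0083), but not without TMM scaling (0.12, adjusted p = 0.337), and the mean of UMIs per cell went the other way (-0.42 on the log2 scale). Between round and elongating cells the TMM-scaled difference was 0.42 ± 0.14 (edgeR, adjusted p = 0.0155), whereas it was -0.43 without TMM scaling (adjusted p = 0.0024) and -0.94 in UMIs per cell, so no direction can be given.

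Few UMIs of Papolb came from the small spermatogonium-like and somatic classes. The 8 spermatogonium-like cells held 2 and 3 UMIs (44.7 and 68.3 CPM), the 7 Sertoli-like cells 3 and 1 UMIs, and the 5 Leydig-like cells 0 UMIs, which allows up to 59.2 CPM (3 counts of the total). With 5000 UMIs per cell, 93.8% of pachytene cells, 94.4% of round cells and 42.9% of Sertoli-like cells had a UMI of Papolb. At that depth the share was 50% in early cells and 37.5% in spermatogonium-like cells. The shares in Sertoli-like and spermatogonium-like cells rest on only 7 and 8 cells.

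Papola, the general nuclear poly-A polymerase, had 205 CPM in mouse 1 and 146.2 CPM in mouse 2 in early cells and 79.6 and 77.7 CPM in pachytene cells. It fell between them by 0.84 on the log2 scale (SE 0.14, edgeR, adjusted p = 4.7e-05). Its level was 224 and 241.6 CPM in the unnamed cluster and 216.4 and 206.7 CPM in round cells. These classes did not differ by the test (0.11 ± 0.13, edgeR, adjusted p = 0.543), and the round class was higher than the pachytene class by 1.74 ± 0.14 (edgeR, adjusted p = 2.3e-10). Elongating cells had 52.9 CPM in both mice, lower than in round cells by -1.15 ± 0.14 (edgeR, adjusted p = 4.8e-07). Papola was thus low in pachytene cells, where Papolb was high, and both were high in the unnamed and round clusters. The few spermatogonium-like cells had 335.3 and 455 CPM of Papola, from 15 and 20 UMIs. Of the UMIs of both polymerases, Papolb held 41.8% and 52.0% in early cells, 87.7% and 86.9% in pachytene cells, 74.7% and 72.4% in the unnamed cluster, 73.3% and 73.7% in round cells and 89.6% and 88.6% in elongating cells. In the spermatogonium-like cells it held 11.8% and 13.0%.

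Paip1, the stimulating partner, was highest in the early class among the 5 tested classes. It had 108.6 and 92.1 CPM in early cells of mouse 1 and mouse 2 and 23.2 and 21.8 CPM in pachytene cells, a fall of -1.85 ± 0.18 (log2 fold change ± SE, edgeR, adjusted p = 4.2e-08). Round cells had 0.975 and 2.03 CPM, a further difference of -3.49 ± 0.29 (edgeR, adjusted p = 4.5e-10). At these few counts the step to elongating cells (1.78 and 1.36 CPM) did not pass the test, with 0.82 ± 0.45 (edgeR, adjusted p = 0.156). Sertoli-like cells, with 9 and 2 UMIs, had 124 and 163.6 CPM of Paip1.

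Paip2 (chr18:35598617-35617187, plus strand), which represses translation, had, among the 5 tested classes, its highest level where Pabpc1 and Pabpc2 had their lowest. It had 195.7 CPM in mouse 1 and 173.4 CPM in mouse 2 in early cells and 114.3 and 107.1 CPM in pachytene cells. This fall of -0.44 ± 0.15 (log2 fold change ± SE, edgeR, adjusted p = 0.0166) was lost without a filter on low counts (adjusted p = 0.0974), without doublets (adjusted p = 0.0618) and at 5000 UMIs per cell (adjusted p = 0.599). Paip2 then reached 371.4 and 384.6 CPM in the unnamed cluster, 728.4 and 660.6 CPM in round cells, and 1129 and 1025 CPM in elongating cells. The round class was higher than the pachytene class by 2.97 ± 0.15 (edgeR, adjusted p = 9.4e-14), and the elongating class higher than the round class by 1.49 ± 0.14 (edgeR, adjusted p = 8.5e-09). Counted as UMIs per cell, the last step was 0.04 in mouse 1 and 0.22 in mouse 2 on the log2 scale, while the mean total per cell was 15254 and 17541 UMIs in elongating cells against 23054 and 23372 in round cells.

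Paip2b, the relative of Paip2, had 56.2 and 35.5 CPM in early cells, 5.23 and 3.87 CPM in pachytene cells and 87.7 and 85.7 CPM in round cells of mouse 1 and mouse 2. The few spermatogonium-like cells had 156.5 and 136.5 CPM of Paip2b, from 7 and 6 UMIs. The fall into pachytene cells was -2.94 ± 0.23 (log2 fold change ± SE, edgeR, adjusted p = 1.9e-09) and the rise to round cells 4.54 ± 0.20 (edgeR, adjusted p = 1.9e-14). Elongating cells were a mixture. The Hemgn cluster had 137.8 and 142 CPM and the Prm1 cluster 17.3 and 17.6 CPM of Paip2b, whereas Paip2 had 867.6 and 796.7 CPM in the former and 1284 and 1236 CPM in the latter. In UMIs per cell the order for Paip2 was the other way. Its mean was 20.53 and 20.27 UMIs in the Hemgn cluster against 16.19 and 16.86 in the Prm1 cluster. For Paip2b, the combined class (62.0 and 77.2 CPM) differed from round cells by 0.53 ± 0.16 (edgeR, adjusted p = 0.0081) with TMM scaling. Without TMM scaling the difference was -0.32 (adjusted p = 0.108), so no direction is given for it. For each 100 UMIs of Pabpc1, Pabpc2 and Pabpc6, there were 2.62 and 2.46 UMIs of Paip2 in pachytene cells, 29.6 and 28.0 in round cells, and 184 and 161 in elongating cells, where the Hemgn cluster had 75.8 and 76.2 and the Prm1 cluster 425 and 467. Both mice gave the same order of the classes.

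**Figure D3:**
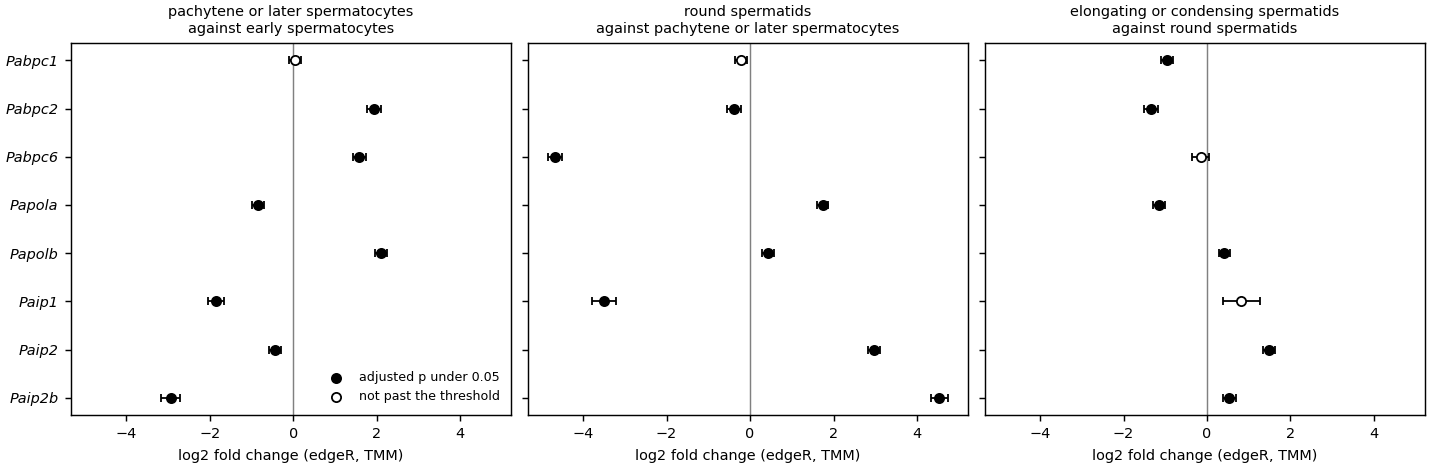
Log2 fold change of 8 genes in 3 comparisons of germ cell classes by edgeR with TMM scaling, each from 2 sums per class, with SE as bars; filled points passed an adjusted p of 0.05. Pabpc6 (-4.67) and Paip1 (-3.49) have the lowest values and Paip2b (4.54) and Paip2 (2.97) the highest between round and pachytene cells.

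Counted over the members, 3 were higher and 4 lower in pachytene than in early cells, of 8 tested. Of all 15003 genes tested, among them some rows of repeat sequences, 25.2% were higher and 23.1% lower in this comparison, or 48.3% in all. The higher share of calls was 52.1%, with 40.8% by DESeq2 and 39.3% without TMM scaling. Between round and pachytene cells 4 members were higher and 3 lower, against 37% and 37.5% of all genes, or 74.5% in all. Between elongating and round cells 3 were higher (Paip2, and Papolb and Paip2b, which reversed without TMM scaling) and 3 lower, and without TMM scaling 1 was higher and 5 lower, against 26.8% and 26.1% of all genes, or 52.9% in all (50.7% of calls higher, and 22.5% without TMM scaling). The median log2 fold change of the members was -0.19, 0.11 and 0.13 in these comparisons, beside 0.03, -0.11 and -0.02 for all genes. The members thus had no common direction, and changes were frequent among all genes.

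The unnamed cluster was also set against its neighbours. Against pachytene cells 4 members were higher and 2 lower in it (Papolb among the former at 0.32, edgeR, adjusted p = 0.0487, but -0.47 in UMIs per cell), beside 31.7% and 30.2% of all genes, or 61.9% in all. Papola (1.63 ± 0.14, log2 fold change ± SE, edgeR, adjusted p = 1.1e-09) and Paip2 (1.84 ± 0.14, edgeR, adjusted p = 3.2e-10) were higher there and Pabpc6 was lower (-1.98 ± 0.14, edgeR, adjusted p = 1.4e-10). Round cells had 2 members higher (Paip2 and Paip2b) and 1 lower (Pabpc6) than the unnamed cluster, beside 24.8% and 19.4% of all genes, or 44.2% in all (56.1% of calls higher, and 40.0% without TMM scaling). The polymerases and Pabpc1 did not pass the test in this step.

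Along the ordering of 2532 germ cells in 20 bins of equal cell number, the members reached their highest CPM at different places. Pabpc1 and Paip1 were highest in bin 1, which held early cells. Pabpc2 and Pabpc6 were highest in bin 4 in mouse 1 and bin 5 in mouse 2. Papolb was highest in bin 11 in mouse 1 and bin 9 in mouse 2, and Papola in bin 12 in both. Paip2b was highest in bin 15 and Paip2 in bin 20 in both mice. In this ordering the places of highest CPM in the 2 animals lay within 2 bins for each gene. With 30 neighbours, Papolb was highest in bin 11 in mouse 1 and bin 7 in mouse 2, and Pabpc1 in bin 1 and bin 3. The width differed too: Papolb stayed at or above 50% of its highest level from bin 2 in mouse 1 and bin 3 in mouse 2 until bin 20, and Paip1 in bin 1 alone. In UMIs per cell with 15 neighbours, Paip2 was highest in bin 15 in mouse 1 and bin 18 in mouse 2. On that scale Pabpc2 was highest in bin 10 and bin 5, and Papolb in bin 10 and bin 5. Bins can mix classes, and bin 10 held 17 pachytene cells beside 109 cells of the unnamed cluster. With 30 neighbours, Pabpc2 and Papolb were highest per cell in bin 5 in both mice.

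**Figure D4:**
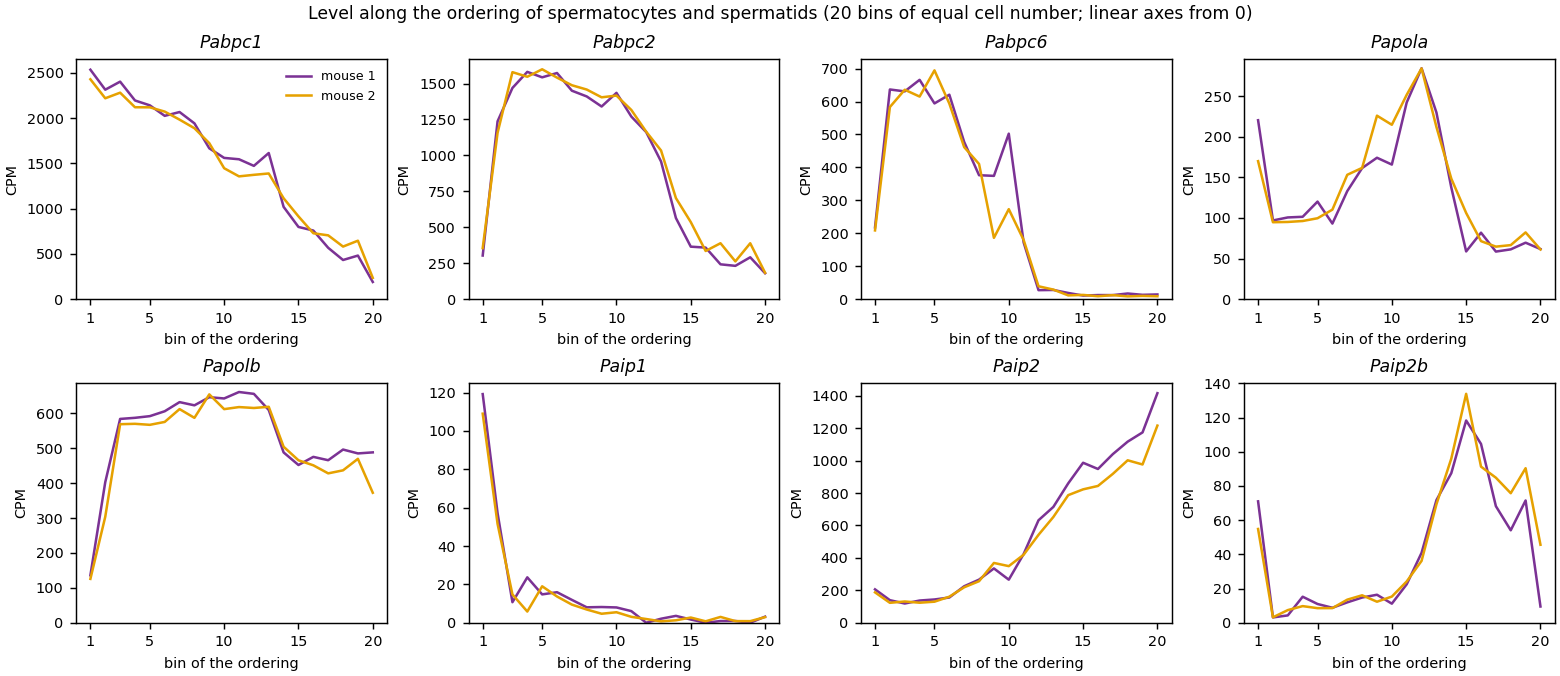
CPM of 8 genes along the ordering of spermatocytes and spermatids by diffusion pseudotime, in 20 bins of equal cell number, with 1 line per mouse and linear axes from 0. Pabpc6 goes down before bin 12, Papola is highest at bin 12 (284.3 and 284.1 CPM) and Paip2 is highest in CPM at bin 20.

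The animals were close in most classes. Early cells, of which mouse 1 gave 51 and mouse 2 gave 111, had the widest spread between the mice. Over the 4852 genes with at least 100 UMIs in these cells, the median absolute log2 ratio was 0.20 and the 95th percentile 0.69. There the ratio of mouse 2 to mouse 1 was 0.713 for Papola, 1.36 for Pabpc2 and 0.632 for Paip2b (exact 95% intervals 0.601 to 0.848, 1.22 to 1.52 and 0.449 to 0.894, counting error only). None of these intervals held a ratio of 1, although the ratios lay within that 95th percentile. The percentile also takes in the counting error of genes with few UMIs. In pachytene cells the ratios were 0.976, 1.002 and 0.741.

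The genes with the courses most like those of the single-exon members were sought over 12 sums (6 clusters in 2 mice) among 8737 genes, by Pearson's r of log2(CPM + 10). For Papolb these were 4932412D23Rik (r = 0.992), Zmynd15 (0.984) and Kcnab3os (0.983). For Pabpc2 they were Zpbp2 (0.996), Nsun2 (0.992) and Spata1 (0.991), and for Pabpc6 Pcyt2 (0.997), Trappc6a (0.995) and Gstt3 (0.994). The sums of a mouse share a library, and the likeness is a description.

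Other genes of tail metabolism moved in both directions, in counts to be read beside the 48.3%, 74.5% and 52.9% of all genes called in the 3 comparisons. Of 18 cleavage and polyadenylation factors tested, which cut the nascent transcript and recruit the polymerase, 7 were higher and 6 lower in pachytene than in early cells. In round against pachytene cells 5 were higher and 10 lower, and in elongating against round cells 3 and 11. Without TMM scaling the counts in these steps were 5 and 7, 5 and 11, and 1 and 13. Cpsf4l was higher in round than in pachytene cells (58.7 and 49.6 CPM against 1.24 and 0.935 CPM, log2 fold change 5.89, edgeR, adjusted p = 1.8e-13), whereas its relative Cpsf4 was lower (1.22 and 0.846 CPM against 22.7 and 23.9 CPM, -4.20, edgeR, adjusted p = 1.0e-10). Cstf2, a subunit of the cleavage stimulation factor, was higher in round cells by 4.89 (edgeR, adjusted p = 3.1e-13).

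Of 19 deadenylation genes tested, which shorten tails, 5 were higher and 8 lower in pachytene than in early cells. In round against pachytene cells 5 were higher and 12 lower, and in elongating against round cells 6 and 8. Without TMM scaling the counts in these steps were 4 and 9, 5 and 12, and 4 and 11. All are again to be read beside 48.3%, 74.5% and 52.9% of all genes called. Cnot3, a subunit of the CCR4-NOT deadenylase, fell from 100.2 and 118.1 CPM in early cells to 16.2 and 16.3 CPM in pachytene cells (-2.48, edgeR, adjusted p = 1.2e-09). Of 14 further poly-A binding and nucleotidyl transferase genes tested, 6 were higher and 2 lower in pachytene than in early cells. In the next step 6 were higher and 7 lower, and in the last 3 and 6. Without TMM scaling the counts in these steps were 5 and 4, 5 and 8, and 3 and 8. Fam46c, a non-canonical poly-A polymerase, rose from 29.0 and 21.9 CPM in early cells to 113.8 and 119.0 CPM in pachytene cells (2.52, edgeR, adjusted p = 4.9e-10). Pabpc5, an X-linked poly-A binding protein gene, had 47 UMIs in the unnamed cluster and 13 in round cells, and 0 in pachytene and in elongating cells, which allows up to 0.167 and 0.261 CPM there (3 counts of the total).

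Of 11 cytoplasmic polyadenylation and cap-binding partners tested, 1 was higher and 3 lower in pachytene than in early cells. In the next step 4 were higher and 4 lower, and in the last 4 and 3. Without TMM scaling the counts in these steps were 0 and 5, 4 and 5, and 3 and 5. All genes called in these steps were 48.3%, 74.5% and 52.9%. Cpeb1, which binds the cytoplasmic polyadenylation element, fell from 12.2 and 5.78 CPM to 0.570 and 0.401 CPM between early and pachytene cells (-3.66, edgeR, adjusted p = 1.3e-05). Eif4e, the cap-binding protein, was higher in elongating cells (1195 and 1121 CPM) than in round cells (155 and 158.3 CPM), by 3.74 (edgeR, adjusted p = 1.8e-14). In the same step Gspt1, a release factor that binds the poly-A binding protein, went from 34.6 and 40.9 CPM to 6.24 and 3.39 CPM (-2.13, edgeR, adjusted p = 7.1e-08).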

How the data were processed

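Per the labels and the methods of the study, the authors processed reads with bcl2fastq 2.17.1.14 and Cell Ranger 2.0.0 against a repeat-masked mouse genome (GRCm38) with Ensembl genes and repeat sequences added, and pooled both mice after downsampling reads. The deposited values are UMI counts per gene and cell, not normalized. All 2552 cells (7114 to 154431 UMIs) and 51868 rows were used. Reads that match several genes are not counted by this pipeline, and counts are 3′ counts of poly-A-captured RNA.

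Cells were scaled to the median UMI count, log2-transformed and clustered by K-means (K = 9, 10 principal components, seed 42), leaving out the members and the related gene lists. A cluster took the class with the highest mean marker score if at least 3 markers reached 1.5 times the level over all cells. Scrublet called 25 doublets, which were kept except in an alternative. UMIs were summed per mouse over 5 germ cell classes (10 sums) and tested with edgeR's quasi-likelihood test with TMM scaling and filterByExpr, two-sided. Benjamini-Hochberg adjustment was over 15003 rows. Counts of all genes tested or compared include rows of repeat sequences. The procedure was tested on simulated data in which a small set of genes rose or fell in the round class alone. That setting is simpler than these data and cannot show the dependence on TMM scaling. Equal replicate numbers mark the same animal: deviations of log CPM correlated by 0.04 to 0.20 over 10 pairs of classes, and a block for the mouse was an alternative. Intervals are exact 95% binomial or Poisson ones and cover counting error only. Cells were thinned to 5000 UMIs, and ordered by diffusion pseudotime with 15 neighbours. Promoters came from RefSeq and were searched for 5 of the 9 members. Those on chromosome 18, which holds Pabpc2 and Paip2, were not used, and Pabpc1 and Pabpc6 had no match.

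The members and lists were chosen with earlier results of these data known. All members are named. From the related lists, the 3 largest rises and falls per comparison could be named, and for Papolb, Pabpc2 and Pabpc6 the 3 genes with the highest r among those with at least 20 CPM in a sum. Alternatives were DESeq2, no TMM, no filter, the block, each mouse alone, no doublets, thinning, K = 10, seed 1, 30 neighbours and, added after seeing the data, UMIs per cell. Tools were edgeR 4.0.16, DESeq2 1.42.0, R 4.3.3, scanpy 1.11.5, scikit-learn 1.9.0, scipy 1.17.1, matplotlib 3.10.9, pandas 2.3.3, numpy 2.4.6 and Python 3.11.15.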

Additional observations from a re-analysis of the deposited data

Results flagged for a closer look

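A row outside the members and the related lists, the poly-A simple repeat that the authors added with the repeat sequences, held 378267 UMIs. Its share of all UMIs was 0.443% in mouse 1 and 0.463% in mouse 2 in early cells, 0.422% and 0.495% in pachytene cells, 0.710% and 0.839% in round cells, and 0.804% and 0.912% in elongating cells. It was picked out because no result above is about it, and there are no control samples to set it against. Like the other repeat rows, it entered the clustering and the totals.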

How the results depend on the processing

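For the members there were 320 values under the 8 other settings with a test that kept both mice. Of these, 300 kept their side of the threshold, 11 lost the call, 7 gained one and 2 reversed. Direction was compared only where a value passed the threshold in the main fit or in the other setting. Changes of sign among values that passed in neither were not counted. Without TMM scaling, Papolb (-0.43) and Paip2b (-0.32) reversed between elongating and round cells, where the median of all genes moved by -0.85 on the log2 scale, and all genes called higher and lower went to 2172 and 7478 (main 4026 and 3914) and members called to 1 and 5. In the same comparison 1 member was called higher without a filter. Against the unnamed cluster, genes lower in round cells numbered 4728 without TMM scaling and 1565 with 5000 UMIs per cell (main 2915), and members called lower numbered 3 and 2. With 5000 UMIs per cell, which lowers all counts, 2171 genes were lower in pachytene than in early cells (main 3472) and 3303 lower in round than in pachytene cells (main 5629). In the unnamed cluster 3012 were higher and 2181 lower than in pachytene cells (main 4756 and 4524). After thinning, 5 of 8 members had their highest share of cells in the same class, not Papola, Papolb and Paip2. Unthinned shares were tied at 100% for Pabpc1, Pabpc2 and Papolb, so for these the count says nothing about stability. Papola moved from round cells (97.45%, unnamed cluster 96.58%) to the unnamed cluster (64.67%, round cells 62.18%). Paip2 moved from round cells (100%, elongating cells 99.86%) to elongating cells (99.01%, round cells 97.22%). In UMIs per cell, an alternative chosen after seeing the data, 8 of 40 values stayed within the spread between the mice, 28 moved further and 4 reversed: Papolb in round against pachytene cells (-0.42), in elongating against round cells (-0.94) and in the unnamed cluster against pachytene cells (-0.47), and Paip2b in elongating against round cells (-0.83). Apart from the lower counts after thinning, the cause was not tested. With the replicate block for the mouse, 4061 genes were higher and 3796 lower in pachytene than in early cells (main 3781 and 3472), and no member's call changed in any of the 5 comparisons. Each mouse alone left the highest class of all 8 members in CPM as it was. Low counts limit what can be said of Pabpc4, and of Paip1 in round and elongating cells. The part of depth in these low counts was not tested.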
